A study of Mus musculus with 6 samples.

Results

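The 10 genes described here encode transcription factors of cardiac mesoderm: Gata4, Gata5, Gata6, Hand1, Hand2, Nkx2-5, Tbx5, Tbx20, Isl1 and Mef2c. They were found by symbol, as every probe set that the array's annotation assigns to exactly 1 of these names. That gave 25 probe sets for 10 genes, among 45037 probe sets tested and 18193 genes with a symbol. The samples derive from 1 mouse embryonic stem (ES) cell line, ER71 A17C, on a 129P2/Ola background, in which doxycycline switches on a cassette (ER71 A2Lox.cre) for Etv2, an ETS-family factor of the blood and endothelial lineages. Embryoid bodies, the clumps in which ES cells differentiate, were grown in hanging drops, and at day 3.5 their Flk1-positive cells were collected by sorting. The 3 induced arrays carry cells that received doxycycline (0.5 microg/ml) for 12 hours, starting at day 3, and the 3 control arrays carry cells of the same line and age that the design text calls untreated, although the treatment field of all 6 samples holds the same doxycycline entry.

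All 6 arrays thus share the cassette, and a doxycycline-treated line without it was not analysed here. An effect of doxycycline and an effect of Etv2 therefore cannot be told apart. The titles number the replicates 1 to 3 in both groups, and no label says that they were separate cultures. A p-value therefore reflects only how far these samples lie apart, which can be technical. Every value below is a log2 RMA level, on which a step of 1 is a doubling of signal. The levels of different probe sets depend on their probes and are not compared with each other.

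Cardiac mesoderm arises from Flk1-positive mesoderm that also gives rise to blood and endothelium, and it is the alternative to the fate that Etv2 promotes. Gata4, Gata5 and Gata6 are zinc-finger factors that bind GATA sites and act early in heart and endoderm formation. Hand1 and Hand2 are basic helix-loop-helix factors of the heart chambers and of extraembryonic and lateral mesoderm. Nkx2-5 (homeobox), Tbx5 and Tbx20 (T-box) and Mef2c (MADS-box) act together with the GATA factors in cardiac progenitors, and Isl1, a LIM-homeodomain factor, marks the progenitors of the second heart field.

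Promoter sequence is shown for the members that varied most between arrays and had a RefSeq entry, together with Kdr, the gene of the sorted Flk1 protein, whose level they are set against below. Of the 10 members 6 had an entry. Each line gives the 250 bases before an annotated start in GRCm38.p6, read 5′ to 3′ on the gene's strand. Capitals mark the letters GATAA, the core bound by GATA factors, and GGAAG, a core bound by ETS factors such as Etv2, on either strand, so that TTATC and CTTCC are their reverse complements.
Hand2, chr8:57320733-57320982, plus strand: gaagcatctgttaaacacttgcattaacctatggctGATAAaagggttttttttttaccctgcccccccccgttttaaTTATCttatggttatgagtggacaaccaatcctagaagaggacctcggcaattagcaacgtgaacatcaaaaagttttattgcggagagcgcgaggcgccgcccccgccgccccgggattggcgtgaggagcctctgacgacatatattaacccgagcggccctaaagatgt
Isl1, chr13:116309689-116309938, minus strand: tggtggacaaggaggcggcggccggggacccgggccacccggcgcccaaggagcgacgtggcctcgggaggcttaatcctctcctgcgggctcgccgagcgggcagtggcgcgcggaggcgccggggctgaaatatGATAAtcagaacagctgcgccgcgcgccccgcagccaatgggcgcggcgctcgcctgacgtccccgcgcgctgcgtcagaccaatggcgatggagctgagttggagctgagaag
Tbx20, chr9:24774304-24774553, minus strand: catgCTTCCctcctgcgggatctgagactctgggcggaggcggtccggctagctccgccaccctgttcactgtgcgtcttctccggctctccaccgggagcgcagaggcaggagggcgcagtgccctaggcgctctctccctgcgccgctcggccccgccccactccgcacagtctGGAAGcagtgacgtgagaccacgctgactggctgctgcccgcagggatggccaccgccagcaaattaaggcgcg
Kdr, chr5:75978456-75978705, minus strand: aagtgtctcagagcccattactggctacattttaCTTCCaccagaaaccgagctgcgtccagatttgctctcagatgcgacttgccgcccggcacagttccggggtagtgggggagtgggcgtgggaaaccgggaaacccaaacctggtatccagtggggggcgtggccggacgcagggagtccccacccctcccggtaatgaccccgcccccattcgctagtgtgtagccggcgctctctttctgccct

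The Hand2 window held 2 GATAA matches, beginning 214 and 172 bases before the start, and no GGAAG match. In the Isl1 window there was 1 GATAA match, at 114 bases, and no GGAAG match. Tbx20 had 2 GGAAG matches, at 246 and 74 bases, and Kdr had 1, at 216 bases, and neither had GATAA. No base belonged to both motifs. Such short words are common: 22.6% of the 32851 RefSeq promoter windows of this length hold GATAA and 64.1% hold GGAAG. A match is a run of letters and not a binding site.

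No probe set of the 10 genes passed the test of induced against control cells. Over 45037 probe sets limma called 1, which is 0.00222% and no member, and 0 once the replicate number was a block, where 1298 had an unadjusted p below the threshold. The called probe set, named here after its value was seen, was of Hprt, a purine salvage gene on the X chromosome, with a log2 fold change of 1.57 ± 0.10 (SE, adjusted p = 0.0337). Of the 25 member probe sets 0 passed the adjusted threshold of 0.05 and 0 had an unadjusted p under 0.05, against 1.53% of all probe sets. The members' log2 fold changes, induced minus control, were positive in 15 and negative in 10, with a median of 0.042, while 51.2% of all probe sets were positive with a median of 0.0029. Every member had limma's adjusted p at 0.9998. An exact permutation test of 3 arrays against 3 cannot give a two-sided p below 0.1. Etv2 itself, read as a check of the labels, lay between 13.27 and 13.36 in the induced arrays and between 8.59 and 10.71 in the controls, a log2 fold change of 3.56 ± 0.46 (SE) whose limma adjusted p was also 0.9998.

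Precision differed widely among the members. For 19 of the 25 probe sets the 6 arrays lay within 1 log2 unit of each other. Their log2 fold changes ran from -0.10 to 0.19, and the 95% intervals of the fit lay between -0.42 and 0.66, that is between 0.748-fold and 1.58-fold. Of these 19, however, 15 were below the array median on every array, where a low level could not be told from background. The narrow intervals of those 15 bound the signal of the probe set and may not bound a change of the transcript. For the other 6 probe sets, of Gata4, Gata6, Hand2, Isl1 and Tbx20, the intervals reached from -1.92 to 1.71, and for all but Gata6 1425463_at they included a change of 2-fold in at least 1 direction. These intervals come from the fit without pairing. With the replicate number as a block the estimates were the same, and the intervals of the 6 reached from -1.003 to 1.19, with 4 of them inside 2-fold in both directions. In that fit the SE of Gata4 1418863_at was 0.31, and the interval of Hand2 1436041_at was -0.96 to 0.10. That so many members ranged over at least 1 log2 unit, 6 of 25 or 24%, compares with 2.86% of all probe sets. In all 6 of them the lowest array was control 2, which was the lowest array for 20.8% of the 1288 probe sets in the table that ranged as widely. In sorted bulk samples such as these, fewer cells of a type and less RNA per cell cannot be told apart.

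**Figure D1:**
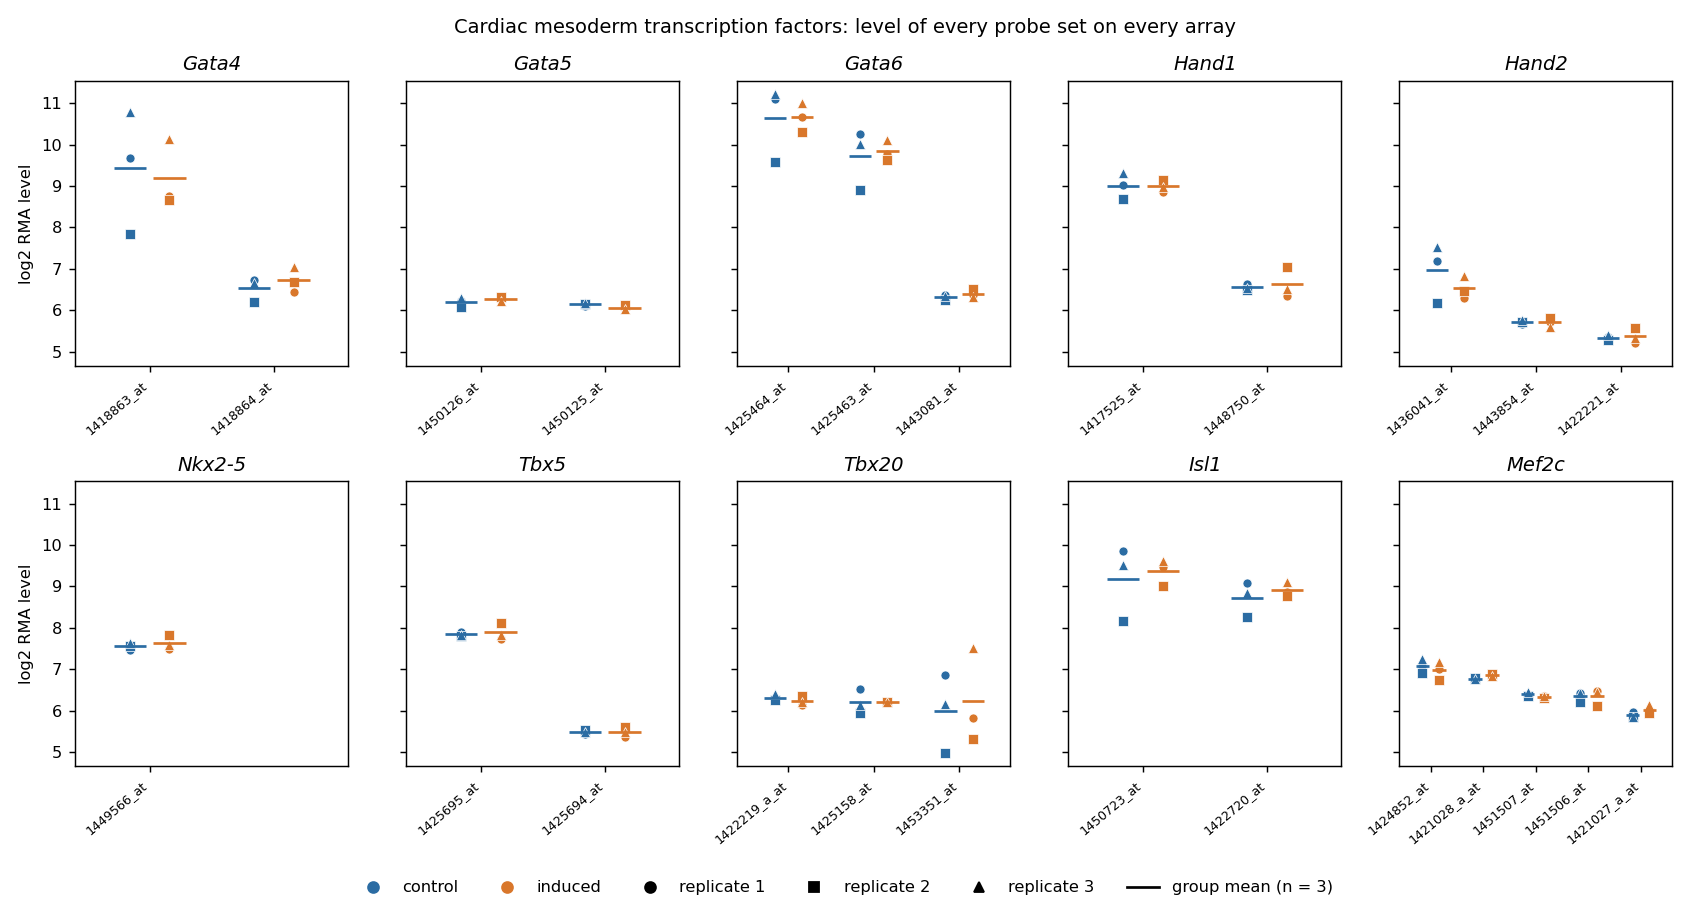
Log2 RMA level (vertical axis) of each of the 25 member probe sets (horizontal axis, 1 panel per gene) on the 6 arrays, blue for control and orange for induced, with circles, squares and triangles for replicates 1, 2 and 3 and a bar for the mean of each group. Gata4 1418863_at spreads from 7.85 in control 2 to 10.78 in control 3, with the induced arrays between them, and Gata5, Nkx2-5, Tbx5 and Mef2c hardly vary.

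Gata4, a zinc-finger factor that acts early in heart formation, varied most of the 25 probe sets. Its probe set 1418863_at stood at 9.67, 7.85 and 10.78 in control arrays 1 to 3 and at 8.76, 8.67 and 10.14 in induced arrays 1 to 3. The induced arrays thus lay inside the range of the controls, which spanned 2.93 log2 units or 7.62-fold. The group means were 9.43 ± 1.48 (SD, n = 3) in controls and 9.19 ± 0.83 in induced cells, a log2 fold change of -0.24 ± 0.72 (SE) with a 95% interval of -1.92 to 1.43. Without control 2 the value was -1.04, and without control 3 it was 0.43, so single arrays set its sign. The other Gata4 probe set, 1418864_at, was below the array median on every array. It read 6.73, 6.20 and 6.66 in control arrays 1 to 3 and 6.44, 6.69 and 7.04 in induced arrays 1 to 3, so control 2 was the lowest here too. Its log2 fold change was 0.19 ± 0.19, the highest among the 19 less variable probe sets, and over the 6 arrays it followed 1418863_at at r = 0.73.

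Gata6, a GATA factor shared by mesoderm and endoderm, was read by a bright pair of probe sets and a dim one. Probe set 1425464_at stood at 11.11, 9.58 and 11.22 in control arrays 1 to 3 and at 10.67, 10.30 and 11.00 in induced arrays 1 to 3. Control 2 was again the lowest, controls 1 and 3 were the highest, and the induced arrays fell between. The log2 fold change was 0.023 ± 0.42 (SE), with a 95% interval of -0.96 to 1.001. Probe set 1425463_at also had control 2 lowest and control 1 highest, but with induced 3 above control 3, at 10.25, 8.90 and 10.003 in controls and 9.78, 9.62 and 10.12 in induced cells. Its log2 fold change was 0.12 ± 0.33, and it ran with the first at r = 0.97. Both changed sign without control 2, to -0.51 and -0.29. The third, 1443081_at, read 6.36, 6.24 and 6.34 in controls and 6.36, 6.52 and 6.33 in induced cells, a log2 fold change of 0.087 ± 0.083, and had r = 0.17 with 1425464_at.

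Gata5, the remaining GATA factor, gave no such spread. Its probe set 1450126_at read 6.21, 6.07 and 6.31 in control arrays 1 to 3 and 6.31, 6.32 and 6.22 in induced arrays 1 to 3. The second, 1450125_at, read 6.11, 6.16 and 6.19 and then 6.05, 6.12 and 6.02. Both were below each array's median, and in both the groups overlapped. Their log2 fold changes were 0.086 ± 0.086 (SE) and -0.088 ± 0.072, opposite in sign, and the correlation between them over the 6 arrays was r = -0.14. Scanner detection calls were not used here, so low levels such as these could not be told from background.

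Hand1, a basic helix-loop-helix factor of early extraembryonic and cardiac mesoderm, was above the array median on every array in 1 of its probe sets, with a range of 0.64. Its probe set 1417525_at stood at 9.02, 8.68 and 9.32 in control arrays 1 to 3 and at 8.86, 9.15 and 8.98 in induced arrays 1 to 3. The induced arrays lay inside the range of the controls, whose SD was 0.32 against 0.14 (n = 3 each). For this probe set the log2 fold change came to -0.012 ± 0.16 (SE), with an interval of -0.39 to 0.37. The dimmer 1448750_at read 6.64, 6.49 and 6.54 in controls and 6.36, 7.06 and 6.52 in induced cells, so that induced arrays were both its lowest and its highest, and its log2 fold change was 0.090 ± 0.17.

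Hand2, the paralogue that acts in the right ventricle and second heart field, had the lowest log2 fold change of the 25. Its probe set 1436041_at stood at 7.18, 6.18 and 7.52 in control arrays 1 to 3 and at 6.29, 6.47 and 6.83 in induced arrays 1 to 3. Controls 1 and 3 lay above all induced arrays and control 2 below them, so the groups overlapped through 1 array. The means were 6.96 ± 0.70 (SD, n = 3) and 6.53 ± 0.27, and the difference between them was -0.43 ± 0.32 (SE), with an interval of -1.18 to 0.32. The sign held without each array in turn, from -0.82 without control 2 to -0.15 without control 3. Control 3 was the only one of the 6 arrays on which it exceeded the array median. Of the dim Hand2 probe sets, 1443854_at read 5.67, 5.73 and 5.78 in controls and 5.72, 5.81 and 5.59 in induced cells (log2 fold change -0.018 ± 0.084). The last, 1422221_at, read 5.35, 5.27 and 5.39 and then 5.22, 5.58 and 5.34 (0.042 ± 0.11). Neither followed 1436041_at over the arrays (r = -0.077 and 0.22).

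Isl1, the LIM-homeodomain factor of second heart field progenitors, was above the array median in both probe sets on every array. Probe set 1450723_at stood at 9.86, 8.17 and 9.51 in control arrays 1 to 3 and at 9.47, 9.02 and 9.61 in induced arrays 1 to 3. Control 2 stood alone at the bottom, 0.85 below the next array, induced 2. The log2 fold change was 0.18 ± 0.40 (SE), with an interval of -0.76 to 1.13, and it was -0.32 without control 2. Probe set 1422720_at ran in parallel (r = 0.97), at 9.09, 8.25 and 8.85 in controls and 8.86, 8.76 and 9.11 in induced cells. Control 2 was lowest there too, and the log2 fold change was 0.18 ± 0.21, or -0.063 without control 2.

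Tbx20, a T-box repressor of the forming heart tube, was split between a variable probe set and a less variable pair. Probe set 1453351_at stood at 6.86, 4.97 and 6.16 in control arrays 1 to 3 and at 5.83, 5.32 and 7.52 in induced arrays 1 to 3. It ranged over 2.55 log2 units, it was above the array median on induced 3 alone, and the groups overlapped throughout. Its log2 fold change was 0.23 ± 0.63 (SE), from -0.42 without induced 3 to 0.68 without induced 2. Probe set 1425158_at read 6.53, 5.95 and 6.15 in controls and 6.22, 6.22 and 6.20 in induced cells, with an SD of 0.29 against 0.013 and a log2 fold change of 0.0043 ± 0.14. The third, 1422219_a_at, read 6.25, 6.26 and 6.41 and then 6.15, 6.35 and 6.21 (-0.070 ± 0.088). Their correlations with 1453351_at over the 6 arrays were 0.57 and -0.25, so the 3 probe sets of Tbx20 do not give 1 pattern for the gene.

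Tbx5, the T-box factor of the first heart field, and Nkx2-5, the cardiac homeobox gene, were both flat. Tbx5 probe set 1425695_at read 7.90, 7.79 and 7.83 in control arrays 1 to 3 and 7.73, 8.12 and 7.83 in induced arrays 1 to 3, for a log2 fold change of 0.052 ± 0.11 (SE). The other, 1425694_at, read 5.44, 5.53 and 5.49 and then 5.37, 5.60 and 5.49, and differed by -0.0007 ± 0.083. In both the control arrays lay inside the range of the induced ones. Nkx2-5 was read by 1449566_at alone, at 7.47, 7.56 and 7.65 in controls and 7.50, 7.84 and 7.58 in induced cells, with a log2 fold change of 0.082 ± 0.11. In Tbx5 1425695_at and in Nkx2-5 the highest array was induced 2, whose median over all probe sets was 7.40 against 7.34 to 7.35 on the others.

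Mef2c, a MADS-box factor of muscle, endothelium and the second heart field, had 5 probe sets, all below the array median on every array. Probe set 1421028_a_at was the only one of the 25 whose groups did not overlap, against 6.42% of all probe sets. It stood at 6.75, 6.80 and 6.77 in controls and 6.83, 6.88 and 6.85 in induced cells, a log2 fold change of 0.077 ± 0.068 (SE). These 6 values span 0.13, less than for most probe sets of the table. The brightest, 1424852_at, read 7.08, 6.92 and 7.25 in controls and 7.01, 6.74 and 7.18 in induced cells. It had the other sign (-0.10 ± 0.14) and ran against 1421028_a_at over the arrays (r = -0.56).

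The remaining Mef2c probe sets overlapped between groups. Probe set 1451507_at read 6.38, 6.34 and 6.46 in controls and 6.34, 6.30 and 6.36 in induced cells (log2 fold change -0.062 ± 0.072, SE). For 1451506_at the values were 6.43, 6.21 and 6.44 and then 6.48, 6.12 and 6.46 (-0.0088 ± 0.12). For 1421027_a_at they were 5.97, 5.84 and 5.85 and then 6.003, 5.93 and 6.13 (0.14 ± 0.084). By replicate number 1421028_a_at and 1421027_a_at were higher in the induced array in 3 of 3 numbers, and 1424852_at and 1451507_at were lower in 3 of 3, so the probe sets of this gene did not share a direction.

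**Figure D2:**
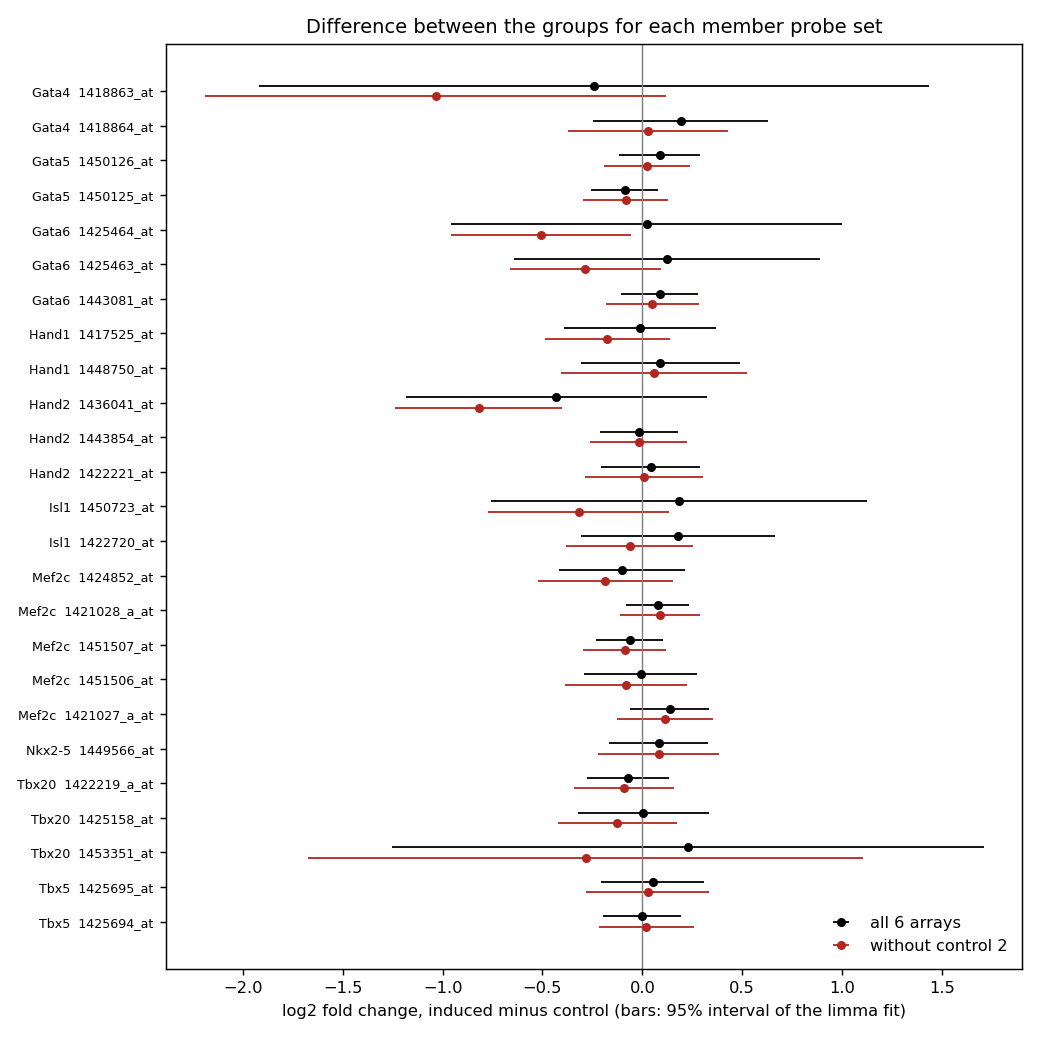
Log2 fold change, induced minus control (horizontal axis), of each of the 25 member probe sets (rows), with the 95% interval of the limma fit, over all 6 arrays in black and without control 2 in red. All 25 black intervals cross 0, and without control 2 the values of Gata4 1418863_at, Gata6 1425464_at and Hand2 1436041_at move to -1.04, -0.51 and -0.82.

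Leaving out control 2 turned the balance of the members downwards, and leaving out control 3 moved it upwards. Without control 3, 19 of the 25 probe sets were positive and 6 negative. Their median log2 fold change was then 0.082, against 0.0039 over all probe sets. Without control 2, 15 of the 25 were negative and 10 positive. The median in that fit was -0.083, against 0.0010 over all probe sets. Kdr moved the same way, to -0.68 ± 0.39 (SE) without control 2 and to 0.60 ± 0.52 without control 3. In the fit without control 2, Hand2 1436041_at was at -0.82 ± 0.18 (SE), Gata6 1425464_at at -0.51 ± 0.19, and Gata4 1418863_at at -1.04 ± 0.49. The first and second of these, or 2 of 25, had an unadjusted p under 0.05 in limma, against 3.97% of all probe sets, and 0 passed the adjusted threshold (smallest adjusted p = 0.993). Without both arrays of number 2, a choice made after the data were seen, 18 of the 25 were negative and the median was -0.069, while 43.5% of all probe sets were positive with a median of -0.016. In that fit 1 of the 25 had an unadjusted p under 0.05, against 3.6% of all probe sets.

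Grouped by replicate number, the members moved in opposite directions. In number 1 the induced array was lower than the control in 19 of 25 probe sets (median difference -0.13), in number 2 it was higher in 21 (median 0.28), and in number 3 it was lower in 14 (median -0.017). Over all probe sets the medians were -0.0073, 0.018 and -0.024. Induced 2 stood higher among dim probe sets, with a lower quartile over all probe sets of 6.06 against 5.96 to 6.01 on the other arrays. It also had the lowest weight in the fit with array weights, 0.32 against 0.64 to 1.86. The part of this array in the members' differences was not tested. Gata4 1418863_at differed by -0.92, 0.82 and -0.64 in numbers 1, 2 and 3, and Hand2 1436041_at by -0.89, 0.29 and -0.69. Gata6 1425464_at differed by -0.44, 0.73 and -0.22, and Isl1 1450723_at by -0.40, 0.85 and 0.10. All 6 of the widely varying probe sets were lower in number 1 and higher in number 2, and they split 3 and 3 in number 3. Kdr differed by -0.46, 0.96 and -0.45, which has the same signs as Gata4, Gata6 1425464_at and Hand2 in 3 of 3 numbers.

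**Figure D3:**
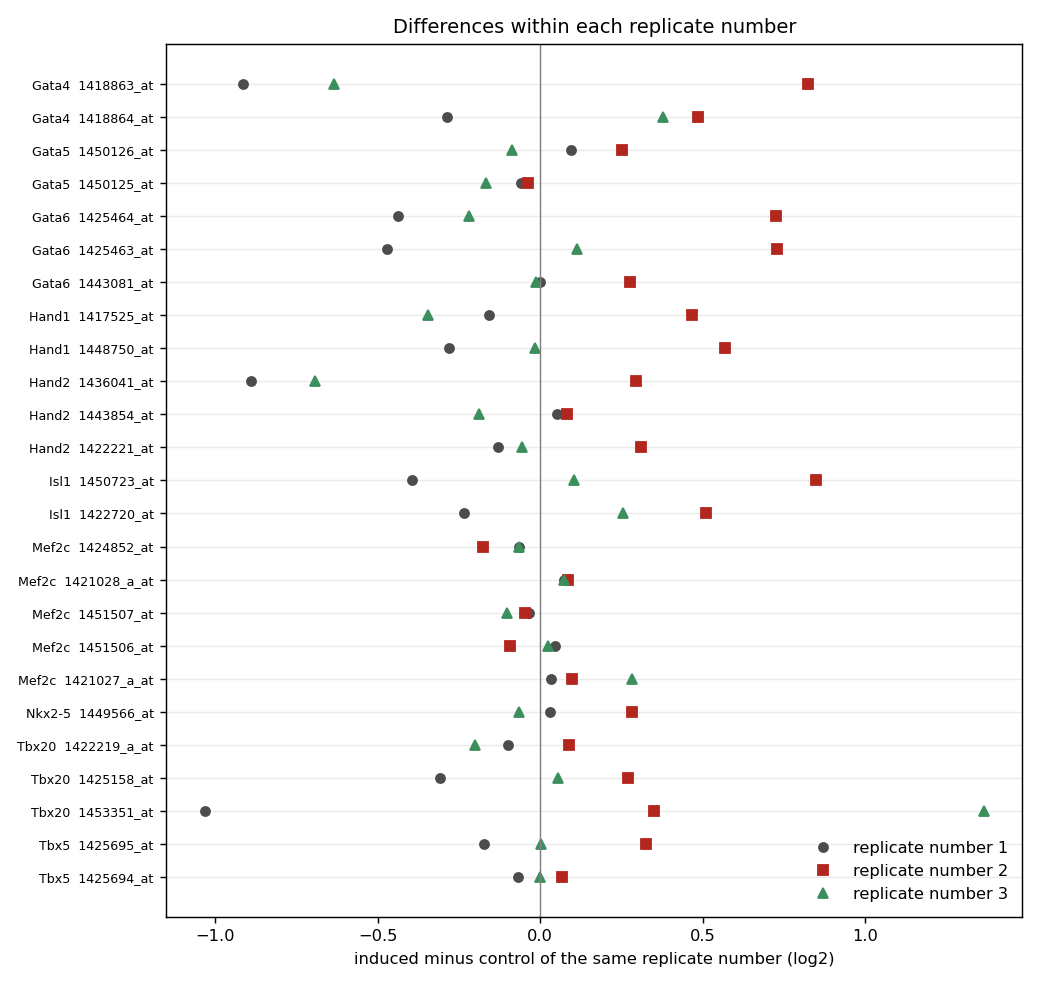
Difference between the induced and the control array of the same replicate number (horizontal axis, log2) for each of the 25 member probe sets (rows), with circles, squares and triangles for numbers 1, 2 and 3. Number 2 lies to the right of 0 in 21 rows and number 1 to the left in 19, and in Gata4 1418863_at the differences are -0.92, 0.82 and -0.64.

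Gata4 and Gata6 followed Kdr from array to array, across both groups, as did many genes outside the 10 members. Kdr stood at 10.02, 8.40 and 10.97 in control arrays 1 to 3 and at 9.56, 9.36 and 10.52 in induced arrays 1 to 3, so its level differed 5.94-fold between controls although every sample had been sorted for the Flk1 protein. The earlier account of these data already related Kdr to a mean of mesoderm genes, so these relations are no independent support for it. The exact permutations below shuffle the arrays freely and keep neither the groups nor the replicate numbers. Their p-values therefore hold only if the arrays are exchangeable. The adjustment covers the 10 members alone, and the share of all genes that follow Kdr as closely was not tested. An r with Kdr above 0.8 was found in 4 of the 10 members. It was also found in 19 of 26 precardiac mesoderm genes, 12 of 25 other cardiac factors and 5 of 24 contractile genes. In each of these other lists 1 gene ran as strongly against Kdr. The relation is thus not particular to Gata4 and Gata6. Over the 6 arrays Gata4 had Pearson r = 0.988 with Kdr (exact permutation p = 0.00139, the smallest that the 720 pairings can give, adjusted 0.0139 over the 10 members) and Spearman rho = 1 (exact p = 0.00278, likewise the smallest, adjusted 0.0278). Without the 2 arrays farthest from the median of Kdr, controls 2 and 3, its r was 0.984. Leaving out each array in turn kept r between 0.981 and 0.995, with an exact permutation p adjusted over the 10 members of 0.0417 without control 1 or induced 2 and of 0.0556 to 0.0833 without each of the others. Fewer arrays leave fewer pairings, so the smallest p that can be reached is larger than over 6 arrays. The adjusted value also depends on the p-values of the other members. A larger adjusted p after leaving out arrays, here and below, is therefore not by itself a weaker relation. A step of 1 in Kdr went with a step of 1.17 in Gata4.

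For Gata6 1425464_at the r with Kdr was 0.945 (exact permutation p = 0.00417, adjusted 0.0208) and rho was 0.943 (exact p = 0.0167, adjusted 0.0556), with r = 0.837 without controls 2 and 3. Without each array in turn it lay between 0.873 and 0.975, and its adjusted exact p was 0.0417 without control 1 and 0.0556 to 0.194 without each of the others. Hand2 1436041_at reached r = 0.866 (exact p = 0.0264, adjusted 0.0880) and rho = 0.886 (exact p = 0.0333, adjusted 0.0833), and Isl1 1450723_at r = 0.818 (exact p = 0.0444, adjusted 0.111) and rho = 0.771 (exact p = 0.103, adjusted 0.206), neither past the adjusted threshold. Without controls 2 and 3 they had r = 0.651 and 0.697. In Isl1 control 1 and not control 3 was highest, and r was 0.486 without control 2. Mef2c 1424852_at had r = 0.793 (exact p = 0.0583, adjusted 0.117) and rho = 0.943 (exact p = 0.0167, adjusted 0.0556) over a range of 0.51, with r = 0.890 without controls 2 and 3 and r = 0.977 without induced 2 (exact p adjusted 0.0417). For Hand1 1417525_at r = 0.767 (exact p = 0.0708, adjusted 0.118) and rho = 0.600 (exact p = 0.242, adjusted 0.403) rested on controls 2 and 3, without which r was -0.25. Without induced 2 alone the r of Hand1 was 0.921 (exact p adjusted 0.104).

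The remaining members, each read by its probe set with the highest mean, had lower correlations with Kdr. For Tbx20 that was 1422219_a_at, and the relation of the variable 1453351_at to Kdr was not tested. Over the 6 arrays 1453351_at had r = 0.75 with Gata4. Gata5 had r = 0.541 (exact p = 0.294, adjusted 0.421), Tbx20 1422219_a_at r = 0.278 (exact p = 0.594, adjusted 0.743), Nkx2-5 r = -0.017 (exact p = 0.968, adjusted 0.968) and Tbx5 r = -0.047 (exact p = 0.917, adjusted 0.968). Spearman's rho was 0.086 for each of them (exact p = 0.919, adjusted 0.919). Without controls 2 and 3 the r of Gata5 was -0.907 and that of Tbx20 -0.352, both turned in sign.

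**Figure D4:**
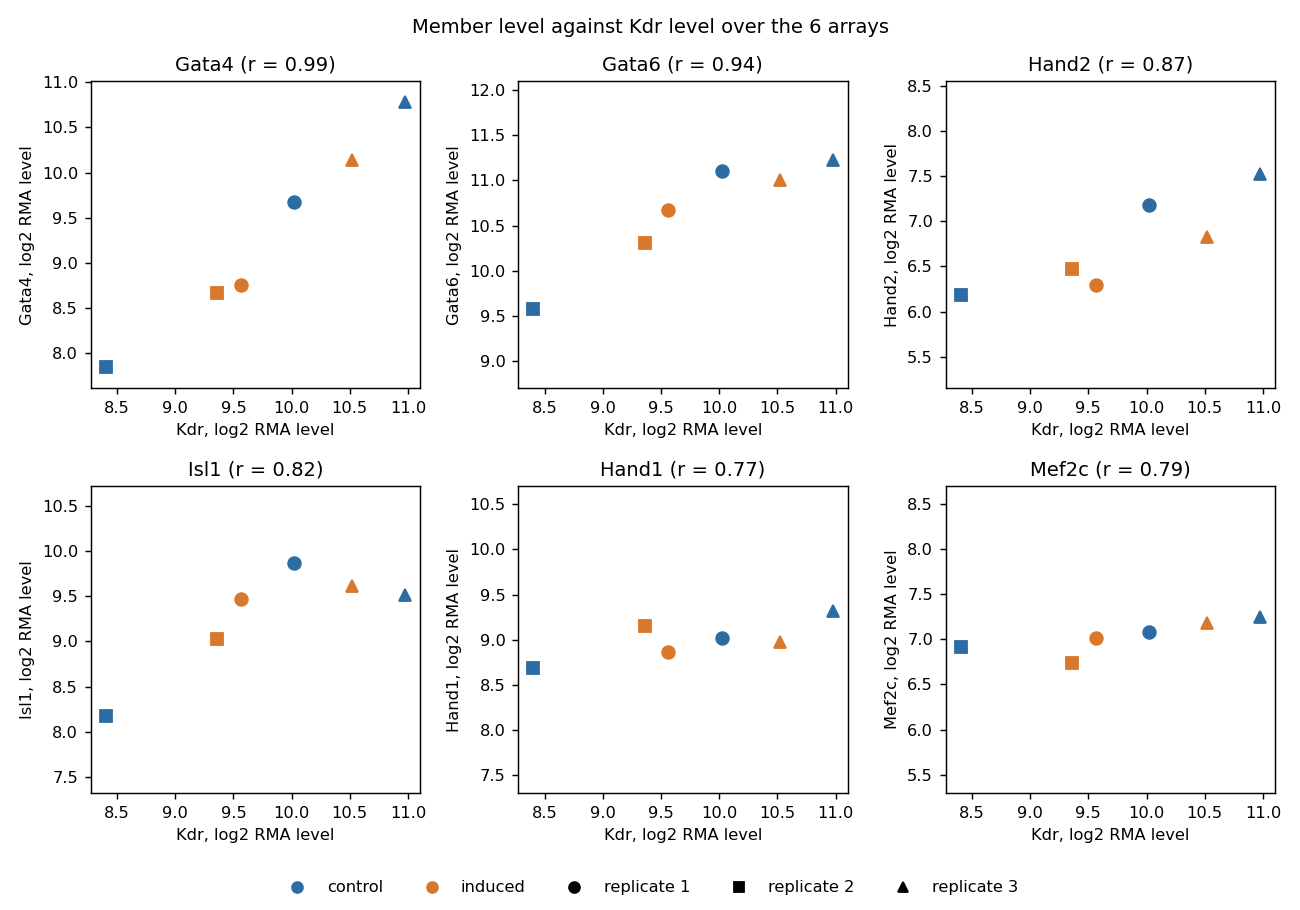
Log2 level of Gata4, Gata6, Hand2, Isl1, Hand1 and Mef2c (vertical axes, each labelled in log2 units) against the log2 level of Kdr (horizontal axes) on the 6 arrays, blue for control and orange for induced. Gata4 rises with Kdr over all 6 arrays (r = 0.99) from control 2 to control 3, with the induced arrays offset by -0.26 at equal Kdr in the fit with Kdr as a covariate, and Hand1 and Mef2c change little.

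A fit with the Kdr level as a covariate was added after the data were seen. In it the SE of Gata4 1418863_at went from 0.72 to 0.095 and its log2 fold change was -0.26, and Hand2 1436041_at was at -0.44 ± 0.11 (SE). These 2 of the 25 probe sets had an unadjusted p under 0.05 in limma, against 2.87% of all probe sets, and 0 passed the adjusted threshold (smallest adjusted p = 0.9986). For Gata6 1425464_at the log2 fold change was 0.013 ± 0.16, and for Isl1 1450723_at it was 0.18 ± 0.24. Kdr was itself read on the same arrays after induction, with a log2 fold change of 0.016 ± 0.61 (SE) in the main fit. The covariate fit thus adjusts for a level that induction could have changed, which it cannot separate from the members.

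The members that varied were positively correlated with each other over the 6 arrays, in differing degree. Gata4 had r = 0.92 with Gata6, 0.92 with Hand2 and 0.77 with Isl1. Gata6 had r = 0.95 with Isl1 and 0.83 with Hand2, and Hand2 had r = 0.67 with Isl1. For the variable Tbx20 probe set 1453351_at r was 0.75 with Gata4, 0.79 with Gata6, 0.81 with Isl1 and 0.58 with Hand2. Tbx5 and Nkx2-5, both flat, had r = 0.80 with each other, and r = -0.053 and -0.041 with Gata4. Among 399 other genes that ranged over at least 1 log2 unit, those most like Gata4 over the 6 arrays were the Wnt effector gene Lef1 (r = 0.997), the ligand gene Wnt2 (0.994) and the parathyroid hormone receptor gene Pth1r (0.991). Gata6 was closest to the Wnt antagonist gene Dkk1 (0.994), the lipid raft gene Rftn1 (0.993) and the sulfotransferase gene Chst7 (0.993). Hand2 was closest to the mesoderm factor genes Mesp2 (0.984) and Irx5 (0.977) and to the growth factor gene Tgfb1 (0.960), and Isl1 to Klhl6 (0.984), Lmo1 (0.967) and the second heart field ligand gene Fgf10 (0.965). Likeness of this degree was common, since 114 of the 399 had r above 0.9 with Gata4, 95 with Gata6, 43 with Hand2 and 25 with Isl1.

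Upstream and neighbouring genes of the cardiac programme were read in the same way, from lists of genes. No gene on any of these lists passed limma's threshold, where 51.1% of all genes were positive with a median log2 fold change of 0.0026. Of 26 measured precardiac mesoderm genes and signals 8 were positive and 18 negative (median -0.052), and 14 ranged over at least 1 log2 unit. Control 2 was the lowest array for 19 of them. Pdgfra, a receptor of cardiac and paraxial mesoderm, stood at 11.71, 9.89 and 11.78 in control arrays 1 to 3 and at 10.89, 10.18 and 11.34 in induced arrays 1 to 3. Bmp2, a ligand that induces cardiac mesoderm, stood at 7.80, 6.89 and 8.53 and at 7.92, 7.21 and 8.77. Without control 2, 23 of the 26 were negative with a median of -0.22.

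Among 25 other cardiac transcription factors and cofactors 11 were positive and 14 negative (median -0.017). The T-box gene Tbx3 (8.55 in control 2 to 11.05 in control 3) and Zfpm1, which encodes the GATA cofactor FOG1 (7.19 to 9.37), had r = 0.99 and 1.00 with Kdr. Contractile and cardiac differentiation genes were positive in 15 of 24 (median 0.049), and 1 of them, the atrial myosin light chain gene Myl7, ranged over at least 1 log2 unit, from 6.20 in control 2 to 8.18 in control 3. Without control 2 the list held 12 positive and 12 negative genes (median 0.013), and without both arrays of number 2 its median was -0.044. The calcium channel gene Cacna1c, next in range, stayed between 6.61 and 7.23.

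Blood and endothelial genes, which mark the competing fate, were positive in 17 of 22 with a median log2 fold change of 0.107, and 3 had an unadjusted p under 0.05, against 1.71% of all genes. With all 6 arrays 5 of the 10 cardiac members were positive, with a median of 0.0055. Without control 2, 14 of the 22 blood and endothelial genes were positive with a median of 0.069. In that fit 3 of the 10 cardiac members were positive with a median of -0.18, and 50.3% of all probe sets with a median of 0.0010. The difference between these lists was not tested. Sox17, which is on this list and on the endoderm list, ran from 8.29 in control 2 to 10.81 in control 3 (r = 0.99 with Kdr).

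Gata4, Gata6 and Hand1 are also expressed outside the heart lineage, so markers of other cell types that the gate could hold were read on the same arrays. The 10 definitive endoderm markers averaged 10.02 to 10.42 in controls and 10.14 to 10.36 in induced cells, with the lowest mean in control 2. They did not move together: 4 had r above 0.8 with Kdr and 3 below -0.8, and control 2 was the lowest array for 6 and the highest for 3. The chemokine receptor gene Cxcr4, which mesoderm also expresses, ran from 8.50 in control 2 to 11.58 in control 3. The 16 extraembryonic endoderm markers averaged 8.28 to 8.30 in controls and 8.30 to 8.38 in induced cells, so control 2 did not stand apart there. The apolipoprotein gene Apoe ran against Kdr (r = -0.91), from 10.11 in control 3 to 11.75 in control 2, and the basement membrane collagen gene Col4a1 with it (r = 0.98).

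The 14 pluripotency markers ran the other way from the cardiac members. They averaged 10.84, 11.30 and 10.64 in control arrays 1 to 3 and 11.09, 11.09 and 10.91 in induced arrays 1 to 3, while the 10 members averaged 8.17, 7.51 and 8.38 and 7.87, 7.90 and 8.16. Control 2 was the highest array for 8 of the 14. Zfp42, a gene of naive ES cells, stood at 8.65, 9.76 and 8.02 in controls and 9.36, 9.10 and 8.79 in induced cells, and Dppa4 ran from 7.96 in control 3 to 9.81 in induced 1. The 8 neuroectoderm markers averaged 8.39 to 8.64 in controls and 8.40 to 8.60 in induced cells, with the highest mean in control 2. Control 2 was the highest array for only 2 of the 8, and 1 of the 8 ranged over at least 1 log2 unit. That was Sox3, at 10.05 in control 2 against 8.28 in control 3, while Zic1 stayed between 5.32 and 6.09. The part of these markers in the members' levels was not tested.

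**Figure D5:**
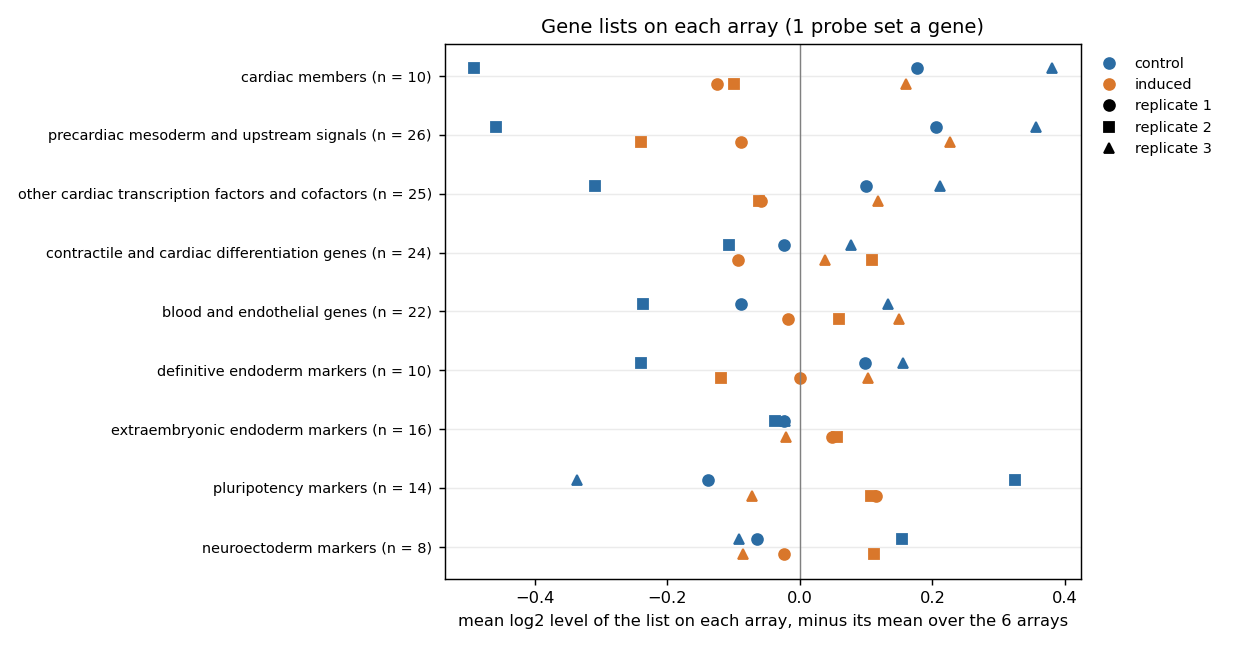
Mean log2 level of each gene list on each array, minus the list's mean over the 6 arrays (horizontal axis), for the cardiac members and 8 context lists (rows, with the number of genes), blue for control and orange for induced. Control 2 lies lowest for the cardiac members, at a mean of 7.51, and highest for the pluripotency markers, at 11.30.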

How the data were processed

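Each array's deposited values are log2 levels from RMA, a method of background correction, quantile normalization and probe summary, per the submitters' processing notes. Neither its version nor its software is given in the sources used here. Scanner files were not used here, so depth in the sense of signal over background is unknown, and 3 arrays per group limit the precision.

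From 45101 probe sets 64 Affymetrix controls were left out. Symbols came from the GEO platform annotation, with 1 symbol for 34945 probe sets; the Entrez identifiers of all 25 member probe sets carry the same symbols in RefSeq (GRCm38.p6). All 45037 probe sets were fitted with limma (version 3.58.1, R 4.3.3; lmFit, eBayes, two-sided, Benjamini-Hochberg over all of them, threshold 0.05), after tests on simulated data. Gene lists and the Kdr relation used the probe set with the highest mean per gene. Members, lists and tests were chosen with earlier results of these data known.

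Named are all members, Etv2 and Kdr, and from each list the members past the threshold or else the 2 with the widest range. For each member whose brightest probe set ranged over at least 1 log2 unit, the 3 most alike genes by Pearson r are named.

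Both groups use the numbers 1 to 3. Same-numbered arrays deviated from their group means with r = 0.25, 0.17 and 0.23, all above 0.1, so the numbers may pair the samples; this rests on the data, since the labels state no shared day or culture. Printed fold changes, SE and intervals come from the fit without a block unless a block is named. Unlike numbers also gave 0.21 (control 1 with induced 3) and 0.18 (control 2 with induced 1). Alternatives were the replicate block, 1 probe set a gene, a filter on dim probe sets, a second quantile normalization, median centring, array weights and leaving out each array. Leaving out both arrays of number 2 and the Kdr covariate were chosen after seeing the data.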

Additional observations from a re-analysis of the deposited data

How the results depend on the processing

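No member probe set passed the adjusted threshold under any alternative run. The pairing changed no call of a member: with the replicate block 0 of 25 were called, and the call over the whole table was lost (0 probe sets). That count was also 0 after median centring, without both arrays of number 2 and without each array in turn, and 2 with the Kdr level as a covariate, where Etv2 (3.55) passed. The settings without both arrays of number 2 and with Kdr were chosen after the data were seen. The members' median stayed between -0.083 and 0.082 when each array was left out.

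Signs of members turned as follows, and the cause was not tested. Without both arrays of number 2: Gata6 1425463_at -0.18, 1425464_at -0.33 and 1443081_at -0.0071, Hand1 1448750_at -0.15, Hand2 1422221_at -0.093, Isl1 1450723_at -0.15, Kdr -0.46, Mef2c 1451506_at 0.034, Nkx2-5 -0.018, Tbx20 1425158_at -0.13, Tbx5 1425695_at -0.085. With array weights: Hand1 1448750_at -0.090, Hand2 1422221_at -0.036, Mef2c 1451506_at 0.065, Tbx20 1425158_at -0.089, Tbx5 1425695_at -0.051. After a second quantile normalization: Hand1 1417525_at 0.020, Tbx20 1425158_at -0.023. After median centring: Kdr -0.0021, Tbx20 1425158_at -0.013.

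Leaving out each array in turn gave Gata4 1418863_at from -1.04 to 0.43, Gata6 1425463_at from -0.29 to 0.39 and 1425464_at from -0.51 to 0.32, Hand1 1417525_at from -0.17 to 0.14 and 1448750_at from -0.12 to 0.23. It gave Hand2 1422221_at from -0.061 to 0.12 and 1443854_at from -0.069 to 0.041, Isl1 1422720_at from -0.063 to 0.36 and 1450723_at from -0.32 to 0.53, and Kdr from -0.68 to 0.60. For Mef2c 1424852_at it gave -0.21 to 0.016 and for 1451506_at -0.083 to 0.11, for Nkx2-5 -0.018 to 0.15, for Tbx20 1425158_at -0.12 to 0.16 and 1453351_at -0.42 to 0.68, and for Tbx5 1425694_at -0.055 to 0.056 and 1425695_at -0.060 to 0.13.

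The correlation with Kdr ranged, without each array, from -0.33 to 0.74 for Gata5, -0.20 to 0.43 for Nkx2-5, -0.31 to 0.45 for Tbx20 1422219_a_at and -0.40 to 0.42 for Tbx5. Without controls 2 and 3 it was -0.91 for Gata5, -0.25 for Hand1 and -0.35 for Tbx20 1422219_a_at, and the exact permutation p adjusted over the 10 members was 0.417 for Gata4 and Gata6. So few arrays leave few pairings, which keeps this p from being small at any r.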
